A study of Mus musculus with 14 samples.

Results

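The comparison between the satellite cells of SAMP8 and SAMR1 mice used 6 of the 14 arrays of the series: 3 arrays of SAMP8 males and 3 of SAMR1 males, all 12 months old. The members were every gene name on the non-control spots of these arrays, 32863 of 36406 gene names after dim probes were removed, and the genes that differed were then separated by how many of their probes carried the difference. SAMP8 (senescence-accelerated mouse prone) and SAMR1 (senescence-accelerated mouse resistant) are inbred strains, and no transgene, deletion or treatment is named for either group. The cells came from skeletal muscle and were sorted as integrin alpha-7 and CD34 positive and as negative for CD31, CD45, CD11b and Sca1, and their RNA was amplified before hybridization to single-colour arrays. The other arrays hold C57BL/6 cells: 3 Young (2 or 3 months), 3 Old (22 to 24 months) and 2 Geriatric (29 and 30 months). The labels call the arrays biological replicates and do not say whether 1 mouse or a pool stands behind each, so a p-value here covers only how far these samples vary, which may be technical. In sorted bulk RNA, fewer cells of a type and less RNA per cell cannot be told apart.

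Satellite cells are the stem cells of skeletal muscle. They lie quiescent beneath the basal lamina under the control of Pax7, switch on Myod1 when activated, and rebuild fibres after injury. In aged muscle, loss of reversible quiescence has been tied to the INK4 locus, whose products Cdkn2a and Cdkn2b restrain the cyclin-dependent kinases that start the cell cycle. The SAMP and SAMR strains descend from related stock of mixed background, and inbred strains carry blocks of the genome that differ in sequence and gene copy number. An array probe of 60 bases reads both transcript abundance and how well the transcript's sequence pairs with the probe.

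Levels are given as log2 signal minus the array's own 75th percentile, so 0 is the 75th percentile of the array. A gene was called at a Benjamini-Hochberg adjusted p under 0.05 in limma, fitted over all 14 arrays. Between 77.2% and 81.9% of spots were well above background on the 6 arrays, and no spot was saturated. SAMP8 arrays correlated with one another at r between 0.945 and 0.9553, below the 0.9686 to 0.9765 among SAMR1 arrays, and the median SD across genes was 0.414 in SAMP8 and 0.282 in SAMR1. The arrays lay on 2 slides, with SAMR1 1, SAMR1 3 and SAMP8 2 on slide 1 and the other 3 on slide 2. All 14 samples are labelled male. The Y-linked genes Ddx3y, Uty and Kdm5d were well above background on each SAMR1 and SAMP8 array but on none of the 6 Young and Old arrays, where Xist was, which goes against the label of those 6. On both Geriatric arrays the Y-linked genes were well above background and Xist was not. The Y-linked genes did not pass the test between SAMP8 and SAMR1 (0.02, 0.14 and −0.47). Xist was also well above background on 1 SAMR1 and 3 SAMP8 arrays (2.62 ± 0.82, adjusted p = 0.32). It read −4.31, −8.15 and −7.81 in SAMR1 and −3.52, −5.13 and −3.76 in SAMP8 cells. The Young and Old means were far higher, at 5.69 and 5.26.

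In SAMP8 cells 149 of 32863 genes differed from SAMR1 cells, 0.453% of those tested, with 74 higher (0.225%) and 75 lower (0.228%). Of the 15722 genes with a symbol, 68 were called (0.433%). At an unadjusted p under 0.05 the count was 2738 genes (8.33%). In all 149 called genes the arrays of the groups did not overlap, which held for 13.1% of all genes tested. Slide as a block gave 187 calls, of which 134 were shared with the 149. Within each slide 1 array stands against a pair, and all 149 genes kept their direction there. Their arrays do not overlap, so this was fixed in advance wherever the same probe stood for the gene. The number of called genes fell to 57 without SAMR1 2, 77 without SAMR1 1 and 91 without SAMR1 3, and rose to 251 without SAMP8 3. Of the 149 genes, 54 were called in each of the 6 fits that left out an array.

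Support by several probes was uncommon. Of the 149 called genes, 19 had at least 2 called probes of the same sign (supported). A further 5 had a second probe of that sign at an unadjusted p under 0.05 (partly supported). In 21, other probes were kept but none reached that p with that sign (unsupported). Some of these still moved the same way, as in Cdkn2b (1.70 and 1.53) and Cntfr (1.15 and 0.62). A single kept probe stood for 94. The remaining 10 were called over genes but not over all 49918 probes, of which 210 were called (0.421%). Among the 9220 genes with several kept probes, the 19 make 0.206%. All kept probes of a gene had 1 sign in 37 of 47 called genes with several probes (78.7%), beside 47.5% of all such genes tested. With exactly 2 probes it was 20 of 23 called genes (87.0%) beside 58.2%.

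The probe sequences below carry the main contrasts, with their probe coordinates in mouse build mm9 as the files give them, written 5′ to 3′. Capitals mark a run of at least 30 bases that matches a probe of another gene name on the array, as the same strand in the chromosome 17 and chromosome 6 intervals and as its reverse complement in Dynlt1e, and a sequence with no capitals has no such run. The first lines are probes of supported genes.

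Mrap2, chr9:87077587-87077646, plus strand: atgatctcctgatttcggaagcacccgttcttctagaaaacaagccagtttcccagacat

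Trim12a, chr7:111452759-111452818, minus strand: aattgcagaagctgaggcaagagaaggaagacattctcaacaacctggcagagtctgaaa

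Nuf2, chr1:171428989-171429048, minus strand: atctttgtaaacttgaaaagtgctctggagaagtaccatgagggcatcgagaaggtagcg

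The next are both probes of Nkx1-2 and then both of Ccr8, genes in which only the first probe shown was called.

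Nkx1-2, chr7:139789056-139789115, minus strand: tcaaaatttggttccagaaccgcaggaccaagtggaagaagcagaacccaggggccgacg

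Nkx1-2, chr7:139791003-139791062, minus strand: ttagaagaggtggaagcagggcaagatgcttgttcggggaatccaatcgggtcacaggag

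Ccr8, chr9:120003941-120004000, plus strand: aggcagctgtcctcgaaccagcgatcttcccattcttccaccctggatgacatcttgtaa

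Ccr8, chr9:120003293-120003352, plus strand: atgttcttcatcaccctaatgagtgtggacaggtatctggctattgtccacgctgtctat

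The last are probes of the chromosome 4 and chromosome 17 loci, an interval on chromosome 6 that shares sequence with the latter locus, and Gm3893, a supported rise for which the files give no coordinates.

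Gm13298, chr4:41841838-41841897, plus strand: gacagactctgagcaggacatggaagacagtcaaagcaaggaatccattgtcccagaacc

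Gm3893: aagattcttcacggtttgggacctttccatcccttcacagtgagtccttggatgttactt

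Dynlt1e, chr17:6606983-6607042, plus strand: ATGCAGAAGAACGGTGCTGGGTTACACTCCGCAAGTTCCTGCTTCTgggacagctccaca

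chromosome 17 interval, chr17:6607658-6607717, minus strand: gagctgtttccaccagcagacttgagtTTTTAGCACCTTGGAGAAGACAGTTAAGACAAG

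chromosome 6 interval, chr6:135299202-135299261, plus strand: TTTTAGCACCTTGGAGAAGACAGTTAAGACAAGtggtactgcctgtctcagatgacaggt

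Among the 19 supported genes, 7 had a gene symbol of established use: Mrap2, Trim12a and Ccl19 were higher and Klra8, Nuf2, Grik3 and Elovl4 lower in SAMP8 cells. The others were 8 transcribed intervals, Gm13298, Gm3893, 3200002M19Rik (now Anapc15, a subunit of the anaphase-promoting complex) and a transcript cluster on chromosome 18. The call of 3200002M19Rik ended without SAMR1 1 (adjusted p = 0.0974), SAMR1 2 (0.0979) or SAMP8 1 (0.0726). Its called probes gave 2.08 to 2.97, and a further, dimmer kept probe gave −0.26. Altogether 13 of the 19 lay within 1 Mb of another called gene.

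Mrap2, an accessory protein of melanocortin receptors, read −4.49, −5.39 and −3.76 in SAMR1 cells and 1.10, 1.01 and 0.62 in SAMP8 cells, and the lowest SAMP8 array lay far above the highest SAMR1 array. The difference was 5.46 ± 0.84 on the log2 scale (SE, n = 3 each), a 44.0-fold rise with a limma adjusted p of 0.0154. Its 3 kept probes span 1233 bases and gave 3.60, 5.46 and 7.20. The adjusted p of the gene rose above 0.05 when SAMR1 1 (0.065), SAMR1 2 (0.0852), SAMP8 1 (0.0547) or SAMP8 2 (0.0526) was left out, while the log2 difference stayed between 5.04 and 5.85.

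Trim12a, a tripartite-motif protein of the Trim5 family, read −1.84, −2.21 and −2.42 in SAMR1 and 0.50, 0.21 and 0.17 in SAMP8 cells on the probe shown above, without overlap. Its difference was 2.45 ± 0.41 (limma adjusted p = 0.0237). The other probe, 4260 bases away, was well above background on no SAMR1 array and on all SAMP8 arrays, which bounds its rise at 204-fold or more. That probe was the brighter one, and so stood for the gene, when a SAMR1 array was left out, and the gene was then called at an adjusted p of 0.00248 without SAMR1 1, 0.00298 without SAMR1 2 and 0.0021 without SAMR1 3, with fitted differences of 8.27, 7.55 and 8.34 that have no exact size. Without SAMP8 1 or SAMP8 2 the gene's adjusted p was 0.0889 or 0.0696.

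Ccl19 encodes a chemokine that binds Ccr7 and guides lymphocytes and dendritic cells. It read 3.75, 3.73 and 4.15 in SAMR1 and 5.13, 5.39 and 5.15 in SAMP8 cells, a rise of 1.35 ± 0.20 (limma adjusted p = 0.0138). A probe 104 bases away rose by 1.49, but the remaining probe, at chr4:42250105-42250164, read −0.16 with overlapping arrays. Without SAMP8 2 another probe became the brightest of the gene and the value was 0.23 (adjusted p = 0.827), and without SAMR1 1 or SAMR1 2 the adjusted p was 0.075 or 0.081.

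Grik3, a kainate-type glutamate receptor subunit, read 1.09, 1.04 and 1.76 in SAMR1 and −2.86, −2.39 and −3.04 in SAMP8 cells, so the groups stood apart. It fell by 4.06 on the log2 scale (SE 0.40, limma adjusted p = 0.000539), and a probe 5784 bases away was well above background on no SAMP8 array, at least 39.5-fold higher in SAMR1 cells. Elovl4, which elongates very long chain fatty acids, read 0.37, 0.32 and 0.38 in SAMR1 and −2.01, −2.16 and −2.33 in SAMP8 cells. Its fall was 2.53 (log2 difference −2.53 ± 0.27, limma adjusted p = 0.00121), with −4.37 on the other probe. Both genes were called whichever array was left out.

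Nuf2, a kinetochore protein that binds microtubules in mitosis, was well above background on all SAMR1 arrays and on no SAMP8 array. It read −0.42, −1.86 and −1.45 in SAMR1 and −6.05, −6.86 and −6.96 in SAMP8 cells, so only a bound can be given: SAMR1 cells were at least 25.6-fold higher (limma adjusted p = 0.00764). The bound sets the SAMR1 mean against the dimmest signal still well above background on the SAMP8 arrays. The other kept probe was also called, with SAMR1 cells at least 6.79-fold higher. Klra8, an activating Ly49 receptor of natural killer cells, read −0.88, −0.72 and −2.60 in SAMR1 and −6.57, −7.10 and −7.30 in SAMP8 cells, where no array was well above background. SAMR1 cells were at least 23.0-fold higher (limma adjusted p = 0.000249). Its called probes lie 65 bases apart, and the remaining, dim probe gave −0.01.

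**Figure D1:**
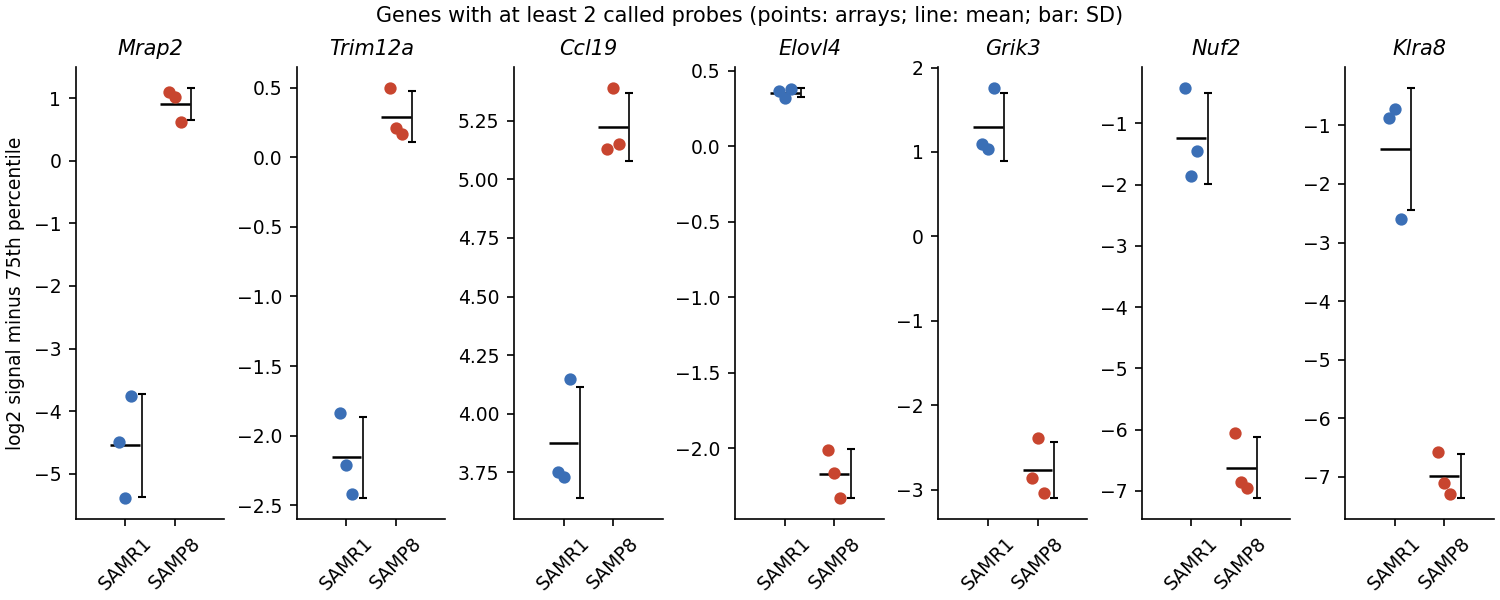
Log2 signal minus the array's 75th percentile for the 7 supported genes with symbols, each point 1 of 3 SAMR1 (blue) or 3 SAMP8 (red) arrays, with the mean (line) and SD (bar); each panel has its own axis. No SAMP8 point falls within the SAMR1 range; the SAMP8 points of Nuf2 and Klra8 were not well above background, so their distance from SAMR1 is a bound.

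In other genes a single probe moved while another probe of the gene stayed or went the other way. Nkx1-2, a homeobox factor, had the largest such rise among the 149 called genes: its called probe read −2.22, −2.13 and −2.48 in SAMR1 and 1.95, 2.76 and 1.87 in SAMP8 cells (4.47 ± 0.31, limma adjusted p = 2.72e-05). The second probe shown above gave −0.14. The mean level of the called probe over the C57BL/6 groups was 2.22, close to that in SAMP8 cells (2.19) and above that in SAMR1 cells (−2.28).

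Nlrp4c, of the NLR family, gave −2.27 on its called probe and 1.01 on the other, and the mean of its probes (−0.63) was not called (adjusted p = 0.767). Pfkfb3, a regulator of glycolysis, gave −1.50 and −0.15. Its call ended without SAMR1 1 (adjusted p = 0.107), SAMR1 2 (0.106) or SAMP8 2 (0.0696), and for the mean of its probes (−0.83, adjusted p = 0.188). Ccr8, the receptor of the chemokine Ccl1, gave 1.25 on its called probe, and the second probe was well above background on none of the 6 arrays. Its call ended without SAMR1 1 (0.107), SAMR1 2 (0.0979), SAMR1 3 (0.0817) or SAMP8 1 (0.0534), and for the mean of its probes (adjusted p = 0.771). 2610109H07Rik (now Draxin, an axon guidance protein) gave −3.31 and 0.24. It was called only without SAMP8 3 among the fits that left out an array (0.0886 without SAMR1 1, 0.139 without SAMR1 2, 0.132 without SAMR1 3, 0.0833 without SAMP8 1 and 0.0839 without SAMP8 2), and the mean of its probes was not called (−1.54, adjusted p = 0.539). Over the 177 genes with any called probe, 94 had a single kept probe and 27 had kept probes of opposite sign. Opposite signs were not particular to called genes. All kept probes had 1 sign in 47.5% of tested genes with several probes, beside 78.7% of such called genes.

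**Figure D2:**
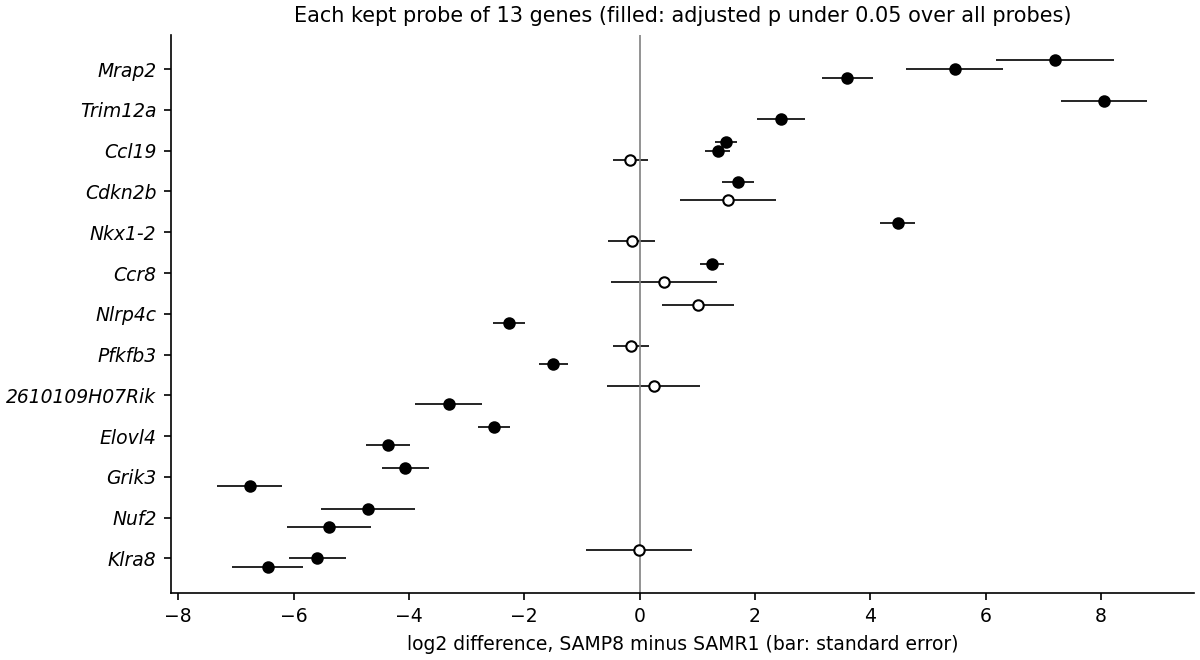
Log2 difference, SAMP8 minus SAMR1, of each kept probe of 13 genes, with its standard error; filled points have an adjusted p under 0.05 over all probes. Mrap2, Trim12a, Elovl4, Grik3 and Nuf2 moved on every kept probe, whereas Nkx1-2 moved on 1 probe (4.47) and stood at −0.14 on the other.

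Among the 8 largest fitted falls of single-probe genes with symbols, H2-D1 and H2-Q8 fell by 6.64 and 5.39 on the log2 scale and were well above background on all arrays of both groups. Arhgef37, a guanine nucleotide exchange factor, Emb (embigin), which escorts monocarboxylate transporters, and Klra6 were well above background on no SAMP8 array, which bounds them at 58.6-fold, 19.6-fold and 5.97-fold or more higher in SAMR1 cells. Amph (amphiphysin), which shapes membranes in endocytosis, Klra9 and Nhedc2 (now Slc9b2, a sodium/proton antiporter) were above it on 1 SAMP8 array each, so their fitted differences of −5.72, −4.75 and −3.90 are not exact.

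Of the 8 largest fitted rises of such genes, those well above background on all 6 arrays were Zfp429 (2.53), Mrpl35 (2.22), Fcer1g (2.17), Mbd4 (2.15), Bpil1 (2.14, now Bpifb2) and Uchl3 (2.14). Mrpl35 is a mitochondrial ribosomal protein, Mbd4 a DNA glycosylase for mismatched thymine, and Uchl3 a ubiquitin hydrolase. The sperm protein Izumo3 and Trim67 were well above background on no SAMR1 array, which bounds their rises at 4.02-fold and 1.39-fold or more, and Izumo3 read −5.14, −1.58 and −5.29 in SAMP8 cells, with SAMP8 2 apart. Chemosensory receptors were kept as a class of their own, in which the taste receptor Tas1r1 gave 2.83.

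The limma adjusted p of the 16 genes other than Tas1r1 ran from 6.78e-06 (H2-D1) to 0.0456 (Amph, Izumo3 and Uchl3). Arhgef37, H2-D1, H2-Q8, Emb, Zfp429, Mbd4 and Bpil1 were called whichever array was left out. Amph was called only without SAMP8 2 (0.133 without SAMR1 1, 0.185 without SAMR1 2, 0.107 without SAMR1 3, 0.155 without SAMP8 1 and 0.0923 without SAMP8 3). Uchl3 was called only without SAMP8 1 (0.156 without SAMR1 1, 0.19 without SAMR1 2, 0.071 without SAMR1 3, 0.0853 without SAMP8 2 and 0.0712 without SAMP8 3). Trim67 was called only without SAMP8 2 (0.0964 without SAMR1 1, 0.0936 without SAMR1 2, 0.0634 without SAMR1 3, 0.0799 without SAMP8 1 and 0.0524 without SAMP8 3). The call of Izumo3 ended without SAMR1 1 (0.148), SAMR1 2 (0.163) or SAMR1 3 (0.138), that of Nhedc2 without SAMR1 2 (0.0655) or SAMR1 3 (0.0608), and that of Mrpl35 without SAMR1 2 (0.0591). With 1 kept probe, a change in level and a base difference under the probe cannot be told apart.

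Many called genes had called neighbours. Of the 145 with coordinates, 56 fell into 13 groups with no more than 1 Mb between neighbours, and 40 of them into 5 groups of at least 3. Each group is bounded by its first and last called gene. The shares called or of 1 sign within a group, given below, are raised by that choice. Chromosome 4 held 25 called genes of 1962 tested (1.27%) and chromosome 17 held 22 of 1632 (1.35%). Outside the 5 larger groups they held 7 and 3.

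The group with most called genes, at chr4:41604532-42803215, had 15 called genes of 27 tested, all 15 higher in SAMP8 cells, by 1.15 to 5.25, and 26 of the 27 had a positive difference. It holds Cntfr, the receptor of ciliary neurotrophic factor, Ccl19, and predicted genes of this repeated region. Gm9615 read −1.45, −2.06 and −1.62 in SAMR1 and 3.37, 3.24 and 4.01 in SAMP8 cells (5.25 ± 0.26, limma adjusted p = 4.57e-06). Gm13298 (now Fam205a2) rose by 3.10 and gave 2.09 to 3.29 on 4 called probes spread over 5178 bases. Both genes had arrays far apart and were called whichever array was left out, with Gm13298 at 2.09, 2.04 and 2.15 without SAMP8 1, SAMP8 2 and SAMP8 3. Their C57BL/6 levels of 2.59 and 5.12 were nearer to SAMP8 than to SAMR1 levels. Cntfr rose by 1.15 on its called probe, and the mean of its probes (0.89) was not called (adjusted p = 0.199). Gm3893, which the files place in no group, rose by 3.69, from 3.05, 3.09 and 3.61 to 6.89, 6.92 and 7.01, and was called whichever array was left out. Its C57BL/6 level, 5.12, lay midway.

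Another group, at chr17:6280617-6831098, went the other way. It had 13 called genes of 25 tested, all 13 lower, by 1.47 to 3.55, and 7 of them supported. Tmem181a, a transmembrane protein, read 0.73, 1.10 and 0.68 in SAMR1 and −2.23, −3.12 and −2.45 in SAMP8 cells, a fall of 3.44 (SE 0.25, limma adjusted p = 4.2e-05). The dynein light chain genes Dynlt1e and Dynlt1c fell by 1.63 and 1.81. Without SAMR1 1 the adjusted p of Dynlt1e was 0.052. That of Dynlt1c was 0.0797 without SAMR1 1, 0.0584 without SAMR1 2, 0.0691 without SAMR1 3 and 0.0525 without SAMP8 2. Probes here were not independent: 12 of 27 called probes (44.4%) shared a run of at least 30 bases, on either strand, with a probe of another name, beside 10.4% of all kept probes and 0 of 20 called probes in the chromosome 4 group. The chromosome 6 interval shown above, also supported, shares its 33 capital bases with the chromosome 17 interval. On the probes shown it fell by 2.43 (log2 difference −2.43 ± 0.28), next to −2.25 ± 0.30 for the chromosome 17 interval.

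The remaining groups of 3 or more were immune and cell cycle loci. At the major histocompatibility complex, chr17:35333097-35580374, 6 of 26 genes were called, 5 of them lower. H2-D1, a classical class I molecule, read 5.45, 5.29 and 5.26 in SAMR1 and −1.68, −0.22 and −2.01 in SAMP8 cells (−6.64 ± 0.37, limma adjusted p = 6.78e-06). SAMP8 cells were thus 99.7-fold dimmer, and the C57BL/6 level was 5.55. H2-Q8 and H2-Q7, non-classical class I genes, gave −5.39 and −1.58, the latter at an adjusted p of 0.0553 without SAMR1 2. The probe of H2-Q7 shares 28 bases with one of H2-K2. H2-K1 (0.46), B2m (0.41), Tap1 (−0.24) and Tapbp (0.01), the other chains and loading factors of class I, were not called.

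At the Ly49 cluster, chr6:129963349-130139775, 3 of 9 genes were called (Klra6, Klra8 and Klra9), all 3 lower, and no tested gene there had a positive difference. Klra9, another Ly49 receptor, read −1.03, −0.93 and −3.34 in SAMR1 and −5.34, −7.65 and −6.57 in SAMP8 cells. The mean C57BL/6 levels of these genes, −6.32, −5.41 and −4.31, lay nearer to the fitted SAMP8 levels, which have no exact size. The C57BL/6 groups differed, though Geriatric cells differ from Young and Old cells in Y-linked genes and Xist as well as in age. Old cells (−5.26, −3.08 and −3.79) lay nearer to SAMR1 for all 3 genes, and Geriatric cells (−8.22, −7.25 and −5.23) nearer to SAMP8. Young cells (−5.48, −5.89 and −3.92) lay nearer to SAMR1 for Klra6 and Klra9. On C57BL/6 arrays Klra6 and Klra8 were mostly dim. The call of Klra9 ended without SAMR1 1 (adjusted p = 0.0732) or SAMR1 2 (0.0807). That of Klra6 ended without any 1 array other than SAMR1 3, at adjusted p values up to 0.148. Of 24 receptors of the natural killer gene complex with kept probes 3 were lower and none higher, with a median of −0.63 beside 0.01 over all genes. That median was 0.05 after normexp background correction and −0.12 in the authors' values, and 7 of the 24 genes were well above background on all 6 arrays.

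At the INK4 locus, chr4:88920405-89109546, 3 of 4 genes were called. Cdkn2b (p15) read −3.38, −3.23 and −2.47 in SAMR1 and −1.18, −1.33 and −1.46 in SAMP8 cells, a rise of 1.70 ± 0.28 (limma adjusted p = 0.0214). Its second probe gave 1.53 at an unadjusted p of 0.092, with overlapping arrays. Cdkn2a (p16 and p19) read −2.93, −3.34 and −2.80 in SAMR1 and −2.05, −1.47 and −2.04 in SAMP8 cells, a rise of 1.17 ± 0.22 (limma adjusted p = 0.0456). Its kept probe is listed for both transcripts, so p16 and p19 were not separated. The C57BL/6 level of Cdkn2a was −3.54, nearer to SAMR1 cells. That of Cdkn2b was −2.04 (Young −1.76, Old −1.73, Geriatric −2.61), nearer to SAMP8 cells. Within slide 1 and slide 2 the differences were 1.39 and 1.29 for Cdkn2a, and 1.60 and 1.90 for Cdkn2b. Their direction there was fixed in advance, since the arrays do not overlap. The calls were not stable: Cdkn2a stayed called only when SAMP8 3 was left out (adjusted p up to 0.19 without SAMR1 2, 0.131 without SAMR1 1, 0.111 without SAMP8 2, 0.0817 without SAMR1 3 and 0.0735 without SAMP8 1). Cdkn2b lost its call without SAMR1 1 (0.109), SAMR1 2 (0.112), SAMP8 1 (0.0833) or SAMP8 2 (0.0665). Cdkn2a was also not called in the authors' values (adjusted p = 0.0655), after normexp background correction (0.0514) or with the SAM arrays alone (0.325). The call of Cdkn2b also ended for the mean of its probes (0.248) and with the SAM arrays alone (0.185), but held in the authors' values (0.0351). A transcribed interval in the same locus was lower (−3.69, limma adjusted p = 0.000539).

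**Figure D3:**
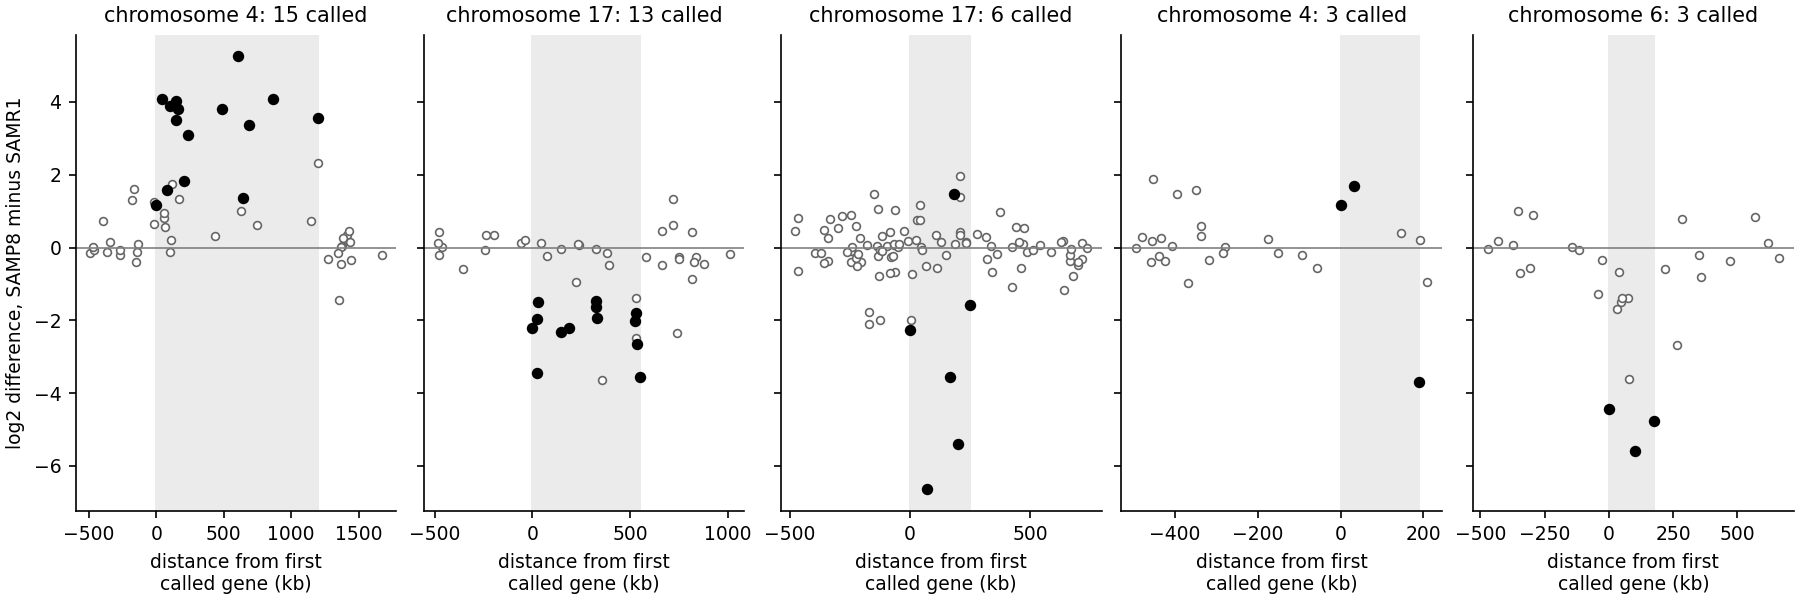
Log2 difference, SAMP8 minus SAMR1, of genes in the 5 groups of 3 or more called genes and 500 kb on each side, against distance from the first called gene; filled points are called and the grey band spans the group. The chromosome 4 group of 15 lies wholly above 0 among its called genes, and the chromosome 17 group of 13 wholly below.

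Of the 30 genes of satellite identity and quiescence none was called, with a median of 0.07. Since 0.433% of genes with symbols were called, a count of 0 in a list of this size is at the background and says nothing about the list. Pax7 read 3.67, 3.60 and 3.58 in SAMR1 and 3.91, 3.40 and 3.75 in SAMP8 cells (0.07 ± 0.21), and the groups overlapped. Myf5 (−0.16 ± 0.39), Cd34 (0.24 ± 0.23) and Itga7 (−0.16 ± 0.26) were not called. All 10 satellite cell markers were well above background on all 6 arrays.

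Of 24 genes of myogenic activation and differentiation, Myod1 alone was called, higher. It read 1.55, 1.56 and 1.23 in SAMR1 and 2.33, 2.29 and 2.42 in SAMP8 cells, a rise of 0.90 ± 0.17 (limma adjusted p = 0.0429). It was not called when any 1 array was left out (adjusted p 0.117 without SAMR1 1, 0.112 without SAMR1 2, 0.193 without SAMR1 3, 0.117 without SAMP8 1, 0.0802 without SAMP8 2 and 0.0778 without SAMP8 3), at log2 differences of 0.80 to 0.96. The C57BL/6 level of Myod1 was 2.27 (Young 2.40, Old 2.36, Geriatric 2.04), nearer to SAMP8 than to SAMR1 cells. Cdkn2a and Cdkn2b were the called members of the 30 cell cycle inhibitors and p53 targets, whose median was −0.03. Cdkn1a (p21) gave 0.73 ± 0.51 with overlapping arrays.

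Interferon-stimulated genes, the antiviral programme switched on by type I interferon, had mostly positive differences, with 1 called. Of 37 measured, 33 had a positive difference, beside 50.9% of all genes, and the median was 0.42 beside 0.01. Summed over the list on the linear scale, the level was 118.8, 116.3 and 122.2 in SAMR1 and 143.8, 142.0 and 146.3 in SAMP8 cells, so the sums did not overlap. The median was 0.23 in the authors' values, 0.61 within slide 1 and 0.46 within slide 2, and it stayed between 0.36 and 0.48 whichever array was left out.

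Only Trim30a of this list was called. It read −5.49, −5.37 and −5.33 in SAMR1 and −2.90, −3.12 and −3.93 in SAMP8 cells (2.08 ± 0.36, limma adjusted p = 0.0291). Leaving out any 1 array other than SAMP8 3 ended the call, at adjusted p values of 0.0971 to 0.122. It lies within 1 Mb of Trim12a. Usp18, which removes Isg15 from proteins, gave 1.45 ± 0.28 (adjusted p = 0.0523), and Mx2 gave 1.16 ± 0.28 (adjusted p = 0.147). Outside the list, and singled out after their values were seen, the interferon-inducible genes Apol9b (2.01), Rtp4 (1.81) and Ube2l6 (0.97) were called higher, each on 1 probe. Apol9b was called whichever array was left out, Rtp4 in none of those 6 fits and Ube2l6 only without SAMP8 3. The probe of Apol9b shares 31 bases with one of Apol9a, and that of Ube2l6 is the reverse complement of a probe of another name over 38 bases.

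Counts in the other lists are read against the same 0.433%, at which a list of this size holds no call as a rule. Of 37 senescence-associated secretory genes, Ccl19 alone was called, higher, with a list median of 0.10. Ccl11 (2.03 ± 0.51, adjusted p = 0.185) and Cxcl10 (1.72 ± 0.44, adjusted p = 0.198) did not pass. None of 50 glutathione S-transferases and antioxidants was called (median 0.11). Gstm2, a glutathione transferase, read 2.98, 3.08 and 2.52 in SAMR1 and 4.16, 4.03 and 3.88 in SAMP8 cells without overlap, at 1.16 ± 0.22 and an adjusted p of 0.0519. Of 76 oxidative phosphorylation genes none was called and 55 had a positive difference, but SAMP8 2 exceeded the SAMR1 mean in 34 only, and the median was −0.03 within slide 1 beside 0.11 in all. The Polycomb, Notch, Wnt, TGF-beta and BMP, extracellular matrix, autophagy and lysosome, stress and clock lists had no called gene, with medians from −0.12 to 0.07.

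**Figure D4:**
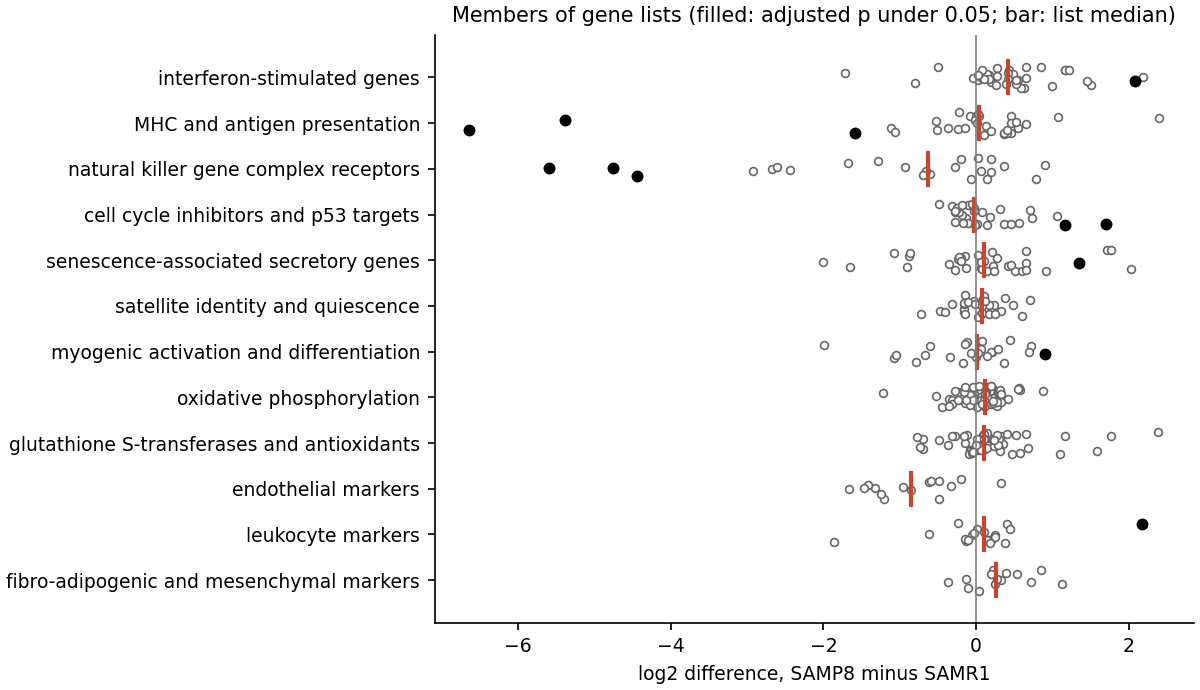
Log2 difference, SAMP8 minus SAMR1, of the measured members of 12 gene lists; filled points are called and the red bar is the list median. Interferon-stimulated genes lie mostly right of 0 (median 0.42), endothelial markers left of it (−0.85), and the called falls belong to the histocompatibility and natural killer lists.

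Markers of cells outside the sort differed between arrays, with no pattern common to all lists. Of 15 endothelial markers none was called and 14 had a negative difference (median −0.85). SAMP8 3 was below the SAMR1 mean for all 15, with a linear sum of 19.8, against 75.4 and 85.1 in the other SAMP8 arrays and 48.8 to 100.2 in SAMR1. Without SAMP8 3 the median was 0.20. Among 19 leukocyte markers only Fcer1g, the gamma chain of Fc receptors, was called, higher, and Ptprc (0.21), Cd68 (0.38) and Csf1r (0.01) were not. Fcer1g read −3.48, −4.64 and −4.25 in SAMR1 and −1.88, −2.63 and −1.35 in SAMP8 cells. Its call ended without SAMR1 2 (adjusted p = 0.139), SAMR1 3 (0.12), SAMP8 1 (0.0952) or SAMP8 3 (0.061), and with slide as a block (0.0506). Itgam (CD11b), excluded by the sort, read 7.49 to 8.70 on all 6 arrays on its brightest probe. Its other kept probes were far dimmer, with means of −2.24 and −1.88 in SAMR1 and −1.65 and −1.69 in SAMP8 cells. Fibro-adipogenic, smooth muscle, glial, fibre and red cell markers held no called gene, with medians of 0.26, −0.19, −0.33, −0.08 and −0.61. The summed fibro-adipogenic level was higher on all 3 SAMP8 arrays, at 122.6, 142.1 and 131.1 against 91.3, 85.9 and 105.5 in SAMR1, without overlap, and 11 of its 14 markers had a positive difference. Of 11 glial markers 4 lay lower and 1 higher in SAMP8 cells without overlap (45.5%, beside 13.1% of all genes), though the sums overlapped. The summed leukocyte level was 188.8 to 280.3 in SAMR1 and 214.6 to 430.5 in SAMP8 cells, and the summed red cell level 26.5 to 58.0 and 2.1 to 87.0, both highest in SAMP8 2. The leukocyte sum came almost wholly from the brightest Itgam probe, so it follows that probe and not the other markers. The mean log2 level of the leukocyte list was −2.72, −2.87 and −2.89 in SAMR1 and −2.81, −2.57 and −2.89 in SAMP8 cells. Whether any of these cells had a part in the interferon, Fcer1g, Ly49 or other values was not tested.

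The differences between SAMP8 and SAMR1 cells were then set beside those between Old and Young C57BL/6 cells, a comparison with no array in common, whose 6 arrays had none of the Y-linked genes named above well above background. Of the 149 genes, 5 were also called between Old and Young, where 472 were called (1.44%). The difference of the differences was called for 122 genes in all (0.371%), 61 of them among the 149. It contains the SAMP8 minus SAMR1 difference by which the 149 were chosen, so those 61 give no separate support. Ccl19 was among the 5, with 1.21 in Old and 1.35 in SAMP8 cells, and the difference of 0.14 ± 0.28 was not called (adjusted p = 0.906). Klra8 was well above background on all Old and SAMR1 arrays and on no Young or SAMP8 array. Cdkn2a gave 0.70 and Cdkn2b 0.03 between Old and Young, and for neither was the difference from its SAMP8 value called (adjusted p = 0.604 and 0.122).

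**Figure D5:**
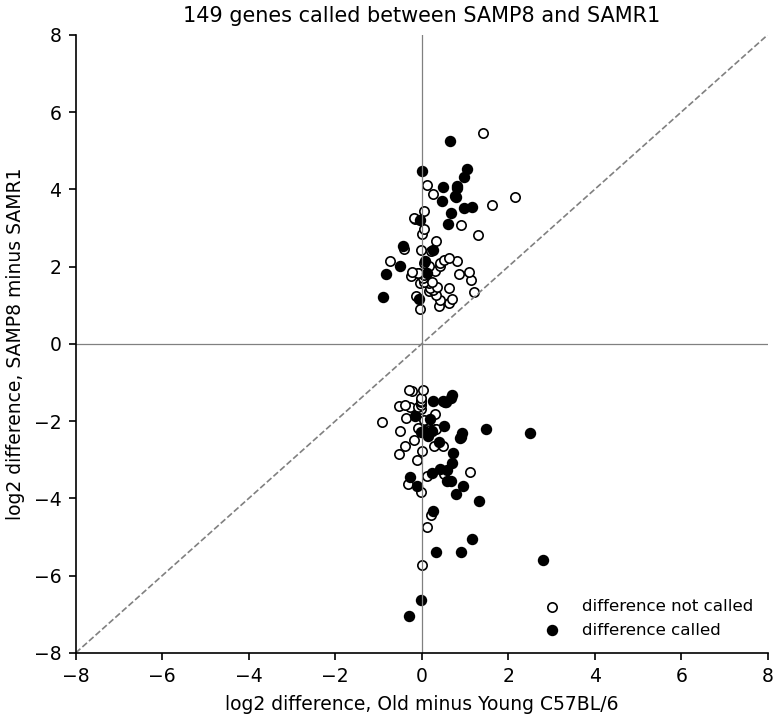
Log2 difference of the 149 called genes between SAMP8 and SAMR1 cells (vertical) against that between Old and Young C57BL/6 cells (horizontal); filled points are the 61 genes whose differences differed, and the dashed line marks equality. The plotted values run from −7.04 to 5.46 vertically and from −0.92 to 2.80 horizontally, where 134 of the 149 lie within 1 of 0; those of genes dim in a group have no exact size.

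Over the mean of the Young, Old and Geriatric groups, C57BL/6 cells were nearer to SAMR1 in 63 and nearer to SAMP8 in 86 of the 149 genes, beside 16589 and 16274 of all genes tested. Among the 19 supported genes the split was 6 and 13. On this mean, H2-D1, Emb, Grik3, Elovl4 and Mrap2 were nearer to SAMR1, and Nkx1-2, Gm9615, Gm13298, Tmem181a and the 3 Ly49 genes nearer to SAMP8. Some placements varied between the Young, Old and Geriatric groups. Elovl4 (Young −1.60, Old −1.20, Geriatric 0.61) was nearer to SAMP8 in Young and Old cells. Grik3 (Young −1.39, Old −0.06, Geriatric 0.84) was nearer to SAMP8 in Young cells. The Ly49 genes varied as given above. Mbd4 (−1.59, between −2.66 in SAMR1 and −0.52 in SAMP8) and Gm3893 lay midway. Strain and age cannot be told apart between the C57BL/6 and the SAM groups. Nor can age and the signal of Y-linked genes and Xist between Geriatric and the other C57BL/6 groups.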

How the data were processed

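RNA of 14 samples was hybridized to Agilent arrays with 55681 non-control probes of 60 bases. Per the file headers, the authors scanned them with Agilent Feature Extraction 10.7.3.1, and the deposited intensity used here is its processed signal, already background-corrected. The authors' deposited log2 table, used as an alternative, differed by at most 0.0165 from quantile-normalized normexp values (offset 50), so its scale is log2, centred at a median of 7.80.

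Here the log2 of the processed signal was centred on each array's 75th percentile and outlier spots were left out (751 values of kept probes missing). A probe was kept where 2 or more arrays of any group had it well above background (49918 probes), and the kept probe with the highest mean stood for its gene. Gene names are those of the files, updated through RefSeq accession (26300 probes), symbol (2044) or synonym (355), with 26982 unmatched. Tests used limma 3.58.1 in R 4.3.3, with 1 coefficient per group over 14 arrays (9 residual degrees of freedom, prior 2.36), two-sided. On simulated data for this comparison with 32350 genes, 18% of log2 changes of 1, 66% of 2, 86% of 3 and 90% of 5 were called, and 8 of 138 calls were false. The simulated noise was independent between genes, with 1 SD per gene for all groups. In the data SAMP8 arrays varied more than SAMR1 arrays, so these rates may not hold there.

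Members and lists were chosen with earlier results of these data known. The genes named were supported genes with symbols, the 8 largest single-probe rises and falls, called genes with a probe of opposite sign, the 3 lowest p of each list, called genes of the largest groups on a chromosome, and fixed markers. Not every gene of this rule is reported here. Others are named where their values bear on a result. Alternatives were the background correction, normalization, filter, gene summary, variance model, slide or replicate number as a block, each slide alone, the SAM arrays alone, and each array left out. The number of arrays limits the precision. Exon and UTR positions of probes were not analysed here.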

Additional observations from a re-analysis of the deposited data

Results flagged for a closer look

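For 22 of the genes and intervals described, the difference between SAMP8 and SAMR1 cells differed from that between Old and Young C57BL/6 cells in limma's test of the difference itself. Each value below is the SAMP8 minus SAMR1 difference less the Old minus Young difference on the log2 scale, with its adjusted p. It contains the difference by which these genes were called, so it gives no separate support for those calls. Lower were H2-D1 (−6.61, 0.000359), H2-Q8 (−6.30, 0.00753), Grik3 (−5.39, 0.00166), Nhedc2 (−4.69, 0.0373), Tmem181a (−3.16, 0.00279), Elovl4 (−2.92, 0.00719), Nlrp4c (−2.31, 0.0306) and Pfkfb3 (−2.03, 0.0326). So were the interval of the INK4 locus (−3.59, 0.0122) and the chromosome 6 (−2.05, 0.0201) and chromosome 17 (−1.74, 0.0429) intervals whose probes are shown. Higher were Gm9615 (4.59, 0.000359), Nkx1-2 (4.47, 0.00107), Gm3893 (3.23, 0.000425), Zfp429 (2.97, 0.0256), Gm13298 (2.49, 0.00258), Mbd4 (2.08, 0.00962) and Cntfr (1.22, 0.0361). The fitted values of Klra8 (−8.40, 0.000359), Arhgef37 (−6.75, 0.0158), Emb (−6.20, 0.00535) and Nuf2 (−5.71, 0.0457) rest on SAMP8 arrays on which the probe was not well above background, so they have no exact size or order. Nhedc2 and the INK4 interval were above it on 1 SAMP8 array.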

How the results depend on the processing

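All 149 calls kept their direction under the 19 alternatives in which each was tested, with 1 exception of 149 when a gene's probes were averaged. Where arrays were only left out, as within a slide, arrays without overlap fixed that direction for an unchanged probe. The number called, 149, was 264 with normexp background correction (158 higher, 106 lower), 229 with the authors' values, 211 with a variance trend, 47 with the SAM arrays alone (29 higher, 18 lower) and 0 within slide 1 and within slide 2, which leave 2 and 3 residual degrees of freedom. The normexp and SAM-only settings moved the share of higher genes from 49.7% to 59.8% and 61.7%. Normexp shifted the median of all genes to 0.08, and slide 1 alone to 0.11. Leaving out 1 array gave 57 to 251 calls. Supported genes, 19, numbered 10 with the SAM arrays alone, 0 within each slide, and 11 to 18 with an array left out. Differences from the Old versus Young change, 122, numbered 76 with the replicate block, 0 within each slide, and 61 to 142 with an array left out. The replicate block gave 101 calls, 96 shared with the 149; same-numbered arrays did not deviate together (r = −0.016, −0.166 and 0.033), so replicate numbers were not used as pairs. Of 52 called genes described or chosen by the naming rule, between 44 and 51 stayed called under each change of background, normalization, filter, gene summary, variance or slide block, 33 with the replicate block, and 19 with the SAM arrays alone. A probe that is dim in SAMP8 or SAMR1 cells gives a bound and no fold.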
